A study of Mus musculus with 6 samples.

Results

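The Toll-like receptor genes Tlr1, Tlr2, Tlr3, Tlr4, Tlr6, Tlr7, Tlr8, Tlr9 and Tlr13 were examined together with Cd14, the co-receptor that hands lipopolysaccharide to the TLR4 complex. These 10 of the 24062 genes in the count tables were taken by symbol, as a family and not by a threshold on their values. All 10 had at least 10 counts in at least 1 library. The RNA came from RAW264.7, a mouse macrophage line grown from a virus-induced tumour, although the labels give bone marrow as the tissue. M0 macrophages received no polarizing agent. M1 macrophages were given LPS at 100 ng/mL together with IFN-γ at 20 ng/mL for 24 h. M2 macrophages were given IL-4 at 20 ng/mL for 24 h. These doses are those of the labels and methods, and for IL-4 and IFN-γ a figure legend of the study gives lower ones. RM0, RM1 and RM2 were macrophages of these 3 states that were exposed to 10 Gy of gamma rays and kept in culture for a further 24 h. Whether the non-irradiated cells were kept for the same additional time is not given in the sources used here, so radiation and time in culture cannot be told apart. Each condition was represented by 1 library from RNA pooled over 5 wells, so no difference between 2 libraries has a replicate check.

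Toll-like receptors are membrane proteins that recognise conserved molecules of microbes through a leucine-rich ectodomain and signal through an intracellular TIR domain, mainly by way of MYD88 and, for TLR3 and TLR4, TRIF. TLR1, TLR2, TLR4 and TLR6 act at the cell surface on lipopeptides and lipopolysaccharide, whereas TLR3, TLR7, TLR8, TLR9 and TLR13 act in endosomes on nucleic acids. In macrophages the abundance of these receptors is known to change after their own ligands and after cytokines.

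The libraries held 17894937 to 18870516 counts, and the scaling factors for composition (TMM) ranged from 0.8004 in M1 to 1.134 in M2. At this depth 3 counts or fewer were taken as no measurement. Macrophage markers were present in every library, with 469530 counts for Lyz2 in M0. Mertk reached at most 8 counts. Nos2, a marker of the M1 state, was at 14393 counts in M0 against 169925 in M1 and 129631 in RM1. Of the M2 markers, Arg1 was at 0 counts in M0 and had 31 in M2 and 89 in RM2, whereas Chil3 and Retnla were at 0 in all 6 libraries. The M2 marker Mrc1, which encodes CD206, had few counts with IL-4 and no steady direction. It had 10 counts in M0 and 6 in M2, but 5 in RM0 and 12 in RM2, while M1 had 50 and RM1 26. The summed level of 6 fibroblast markers was 6.45 to 10.0 scaled CPM in the M0 and M2 states and 43.6 and 45.8 in M1 and RM1. Dcn contributed nearly all of it, and the defining markers Col1a2 and Col3a1 were at 0 in every library. The T cell markers had 1 count in all, and the B cell marker Ms4a1 was at 0 in every library. Genes were compared between libraries as log2 fold changes of scaled counts with a prior count of 2, with exact 95% intervals that cover counting error only. A difference of 2-fold or more was called if either library reached 10 counts, and a call contrasts a pair of libraries rather than the conditions. M1 and M2 were set against the same M0 library and RM1 and RM2 against the same RM0 library. In such bulk RNA, fewer cells that express a gene and less of its RNA per cell cannot be told apart.

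The promoters of 4 genes are shown, chosen by the values described below. Tlr8 was higher with IL-4, Tlr9 and Tlr13 were lower with LPS plus IFN-γ, and Tlr2 was not called in M1. Cd14 was left out of the promoter search. Among the Toll-like receptor genes, 7 had an entry in the RefSeq promoter windows, which run from 250 bases before to 50 bases after the start. The sequences are those of RefSeq on GRCm38.p6, written 5′ to 3′ on the strand of the gene. The Tlr8 window is chrX:167264280-167264579 on the minus strand, that of Tlr9 chr9:106222348-106222647 on the plus strand, that of Tlr13 chrX:106143025-106143324 on the plus strand and that of Tlr2 chr3:83841559-83841858 on the minus strand. The Tlr8 window lies wholly outside the span listed for Tlr8 with the counts, which ends at 167263788. Its start is thus not that of the listed span. Capitals mark matches, on either strand, to 5 short motifs.
Tlr8: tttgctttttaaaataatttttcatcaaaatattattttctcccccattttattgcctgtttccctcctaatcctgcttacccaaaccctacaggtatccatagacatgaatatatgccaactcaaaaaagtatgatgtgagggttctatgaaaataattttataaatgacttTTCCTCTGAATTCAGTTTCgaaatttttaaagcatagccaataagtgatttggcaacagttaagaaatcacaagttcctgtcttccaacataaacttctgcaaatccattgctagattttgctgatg
Tlr9: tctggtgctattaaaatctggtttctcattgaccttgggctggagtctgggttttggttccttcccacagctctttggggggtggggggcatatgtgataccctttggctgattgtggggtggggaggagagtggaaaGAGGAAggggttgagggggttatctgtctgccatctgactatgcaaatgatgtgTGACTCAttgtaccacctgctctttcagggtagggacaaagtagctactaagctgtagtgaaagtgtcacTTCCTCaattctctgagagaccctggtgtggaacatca
Tlr13: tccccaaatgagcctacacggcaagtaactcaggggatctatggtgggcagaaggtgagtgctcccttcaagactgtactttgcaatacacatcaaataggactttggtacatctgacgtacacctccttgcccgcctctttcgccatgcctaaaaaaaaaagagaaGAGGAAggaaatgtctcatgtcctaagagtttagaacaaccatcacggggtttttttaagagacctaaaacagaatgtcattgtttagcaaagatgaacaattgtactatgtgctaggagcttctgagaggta
Tlr2: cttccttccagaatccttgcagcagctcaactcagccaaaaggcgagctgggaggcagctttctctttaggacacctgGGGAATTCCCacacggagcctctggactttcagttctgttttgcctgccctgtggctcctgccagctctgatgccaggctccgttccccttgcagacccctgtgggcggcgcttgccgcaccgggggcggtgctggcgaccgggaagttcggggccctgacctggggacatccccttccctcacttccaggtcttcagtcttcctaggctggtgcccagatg

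The motifs searched were GGNNNTTCC (kappa B, bound by NF-κB), GAAANNGAA (interferon-stimulated response element), TTC and GAA separated by 4 bases (STAT6 type), TGANTCA (AP-1) and GAGGAA (core of the PU.1 site). In the Tlr8 window a STAT6-type match, TTCCTCTGAA, lay at -77 to -68 from the start, overlapping a PU.1 core at -77 to -72. It was followed directly by a match to the interferon-stimulated response element at -67 to -59. Among 32851 windows of the same length, 6.95% held the STAT6-type motif, 8.56% the interferon-stimulated response element and 28.3% the PU.1 core. The Tlr2 window held the palindrome GGGAATTCCC, which gives kappa B matches at -172 to -164 and at -171 to -163, and 18.5% of all windows held that motif. Kappa B matches also lay in windows of Tlr3 and Tlr6, which are not shown. The Tlr9 window held an AP-1 match at -58 to -52, a motif in 7.81% of all windows, with PU.1 cores at -112 to -107 and at 12 to 17. The Tlr13 window held 1 PU.1 core, at -83 to -78. These matches describe letters in the windows only.

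In M0 macrophages the level per length, in scaled CPM per kb of the longest annotated transcript, covered a wide range. It was 2068 for Cd14, 29.4 for Tlr2, which pairs with TLR1 or TLR6 to bind lipopeptides, 14.8 for Tlr4, the lipopolysaccharide receptor, and 13.5 for Tlr7, a receptor for single-stranded RNA. Below these stood Tlr13, the mouse sensor of bacterial ribosomal RNA, at 5.29, Tlr1 at 4.33 and Tlr6 at 4.32. Tlr9, which senses unmethylated CpG DNA, was at 2.26, Tlr3, which senses double-stranded RNA, at 0.938 and Tlr8 at 0.279. Tlr1 and Tlr6 could not be separated by level in M0, since the ratio of Tlr6 to Tlr1 was 0.997 (95% interval 0.843 to 1.18). Cd14 was first and Tlr2 was second in all 6 libraries, while Tlr4 ranked 3 in M0 and 5 in M1 and Tlr13 ranked 5 and 9. Per kb of merged exons instead of the longest transcript, Tlr4 (10.9) lay below Tlr7 (12.9) in M0, so the order of these neighbours depends on the length used. The 3 other mouse Toll-like receptor genes were not measurable, with 1 count for Tlr5 in M2 and 0 counts elsewhere, and 0 counts for Tlr11 and Tlr12 in all 6 libraries.

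**Figure D1:**
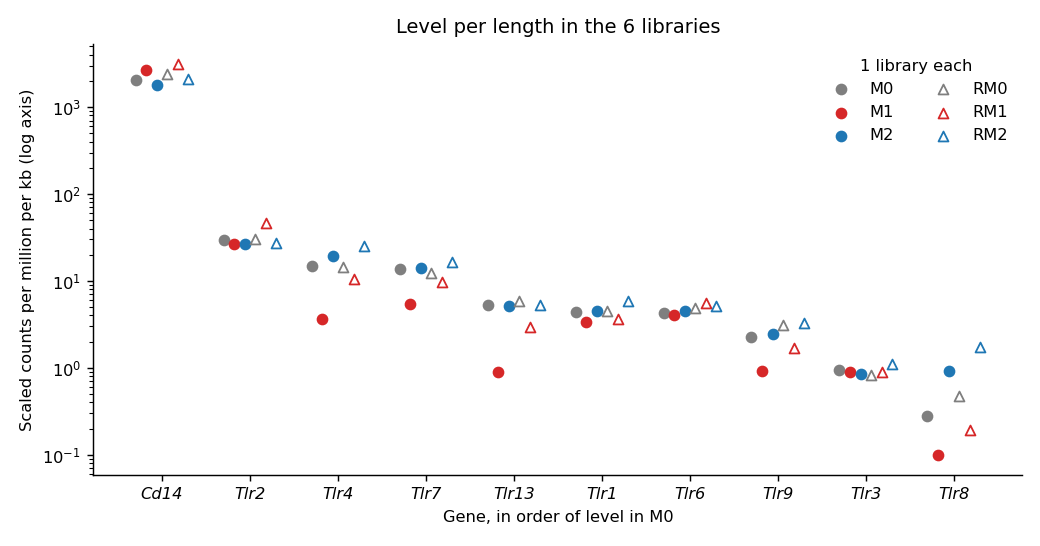
Level per length of the 10 genes (log axis, scaled CPM per kb) in the 6 libraries. Each point is 1 library, with filled circles for non-irradiated and open triangles for irradiated macrophages. Cd14 lies far above the receptors, and the M1 circles of Tlr4, Tlr7, Tlr13, Tlr9 and Tlr8 lie lowest in their columns.

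Across the 6 libraries the scaled level spanned a log2 range of 3.77 for Tlr8, 2.78 for Tlr4, 2.70 for Tlr13, 1.79 for Tlr9 and 1.58 for Tlr7. The other 5 genes spanned 0.40 to 0.82. Among genes averaging 50 counts or more, which leaves out Tlr8, a range of 1 or more was seen for 4 of 9 of these genes and for 30.4% of 10190 genes in all. M1 was the lowest library for each of those 5 genes. RM2 was the highest for 4 of them and RM0 for Tlr13.

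The next comparison asks how LPS plus IFN-γ, which includes the ligand of TLR4 itself, was accompanied by changes in receptor transcripts. Tlr13 and Tlr4 were much lower in M1 than in M0, Tlr7, Tlr9 and Tlr8 were lower by a smaller factor, and Tlr2, Tlr6 and Tlr3 differed little. In M1 against M0, 5 of the 10 genes were called lower and 0 higher, while 13.3% of all genes measured were called lower and 9.37% higher. In RM1 against RM0, only Tlr8 was called lower and 0 genes higher, against 7.87% and 6.16% of all genes. The 10 genes had a median log2 fold change of -0.81 in M1 against M0, where that of all genes measured was -0.03, and -0.31 in RM1 against RM0, where it was -0.01.

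Tlr4 had 1199, 219 and 1601 counts in M0, M1 and M2 and 1149, 711 and 2029 in RM0, RM1 and RM2. The M1 library was the lowest, the RM1 library second lowest, and both IL-4 libraries were the highest. Its log2 fold change was -2.02 (-2.24 to -1.82) in M1 against M0 and -0.46 (-0.60 to -0.32) in RM1 against RM0. Tlr13 had 426, 53 and 426 counts in M0, M1 and M2 and 469, 201 and 423 in RM0, RM1 and RM2. It was thus low in the M1 and RM1 libraries alone, with a log2 fold change of -2.55 (-3.02 to -2.17) without irradiation and -0.98 (-1.24 to -0.75) with it.

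Tlr7 had 1046, 313 and 1105 counts in M0, M1 and M2 and 935, 625 and 1263 in RM0, RM1 and RM2. M1 and RM1 were again the lowest libraries. The log2 fold change was -1.31 (-1.5 to -1.13) in M1 against M0 and -0.35 (-0.50 to -0.20) in RM1 against RM0. Tlr9 had 156, 47 and 173 counts in M0, M1 and M2 and 211, 97 and 223 in RM0, RM1 and RM2, with M1 and RM1 again the lowest, and its log2 fold changes were -1.28 (-1.81 to -0.83) and -0.88 (-1.25 to -0.53). Tlr8 rested on few reads in these comparisons, with 19 counts in M0, 5 in M1, 32 in RM0 and 11 in RM1. Its log2 fold changes of -1.26 (-3.28 to -0.03) and -1.18 (-2.44 to -0.28) had intervals that reach close to 0.

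Tlr2 had 1756, 1176 and 1604 counts in M0, M1 and M2 and 1768, 2333 and 1620 in RM0, RM1 and RM2, so that RM1 stood above the other 5 libraries, which lay close together once scaled. Its log2 fold change was -0.15 (-0.26 to -0.05) in M1 against M0 and 0.63 (0.54 to 0.72) in RM1 against RM0. Tlr1 and Tlr6, the partners of TLR2, gave -0.36 and -0.09 in M1 against M0 and -0.28 and 0.16 in RM1 against RM0. The value of Tlr6 in RM1 against RM0 was -0.09 when libraries were scaled by their totals. Tlr3, with 59 to 97 counts per library, gave -0.05 (-0.56 to 0.45) and 0.10 (-0.40 to 0.61), so a change of this size was not detectable at this depth.

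Cd14 (GRCm38, chromosome 18, 36725067 to 36726654) was among the abundant transcripts, with 67308, 63984 and 59582 counts in M0, M1 and M2 and 76872, 86659 and 69383 in RM0, RM1 and RM2, or 0.333% to 0.459% of all counts. After scaling the M1 and RM1 libraries were the highest of their groups. The log2 fold change was 0.35 (0.34 to 0.37) in M1 against M0, which became -0.09 with scaling by library totals alone, and 0.41 (0.39 to 0.42) in RM1 against RM0, which became 0.16. Scaling by totals moved the median of all genes to -0.46 in M1 against M0, to -0.25 in RM1 against RM0 and to 0.13 in RM1 against M1. A change of scaling shifts all genes of a pair nearly alike. The place of Cd14 above that median in M1 therefore hardly depends on the scaling and is no separate check of its direction.

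**Figure D2:**
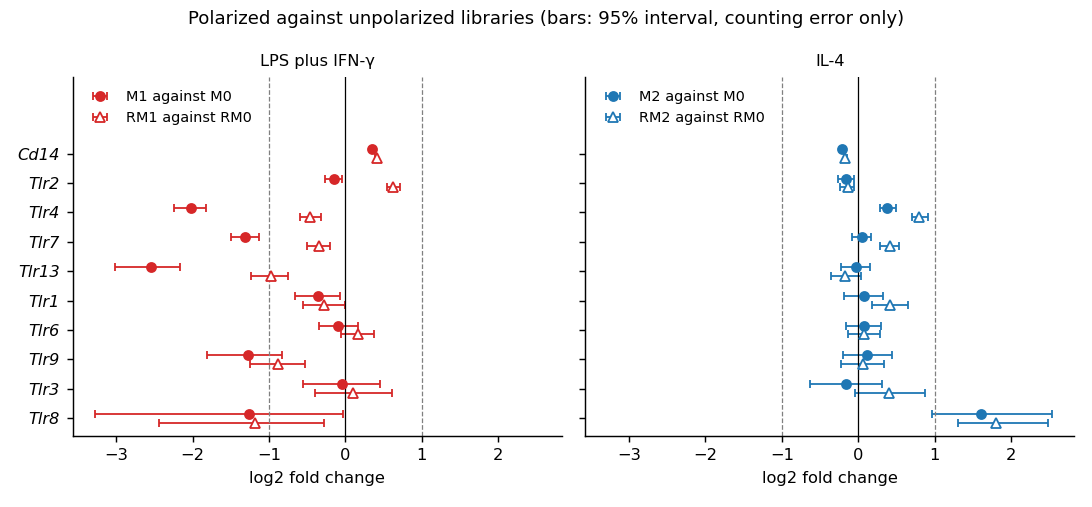
Log2 fold change of the 10 genes with LPS plus IFN-γ (left) and with IL-4 (right), without irradiation (filled circles) and with it (open triangles). Bars are exact 95% intervals for counting error and dashed lines mark 2-fold. Tlr4 and Tlr13 lie at -2.02 and -2.55 in M1 against M0 and at -0.46 and -0.98 in RM1 against RM0, and Tlr8 alone passes 2-fold with IL-4.

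An effect shared by irradiated and non-irradiated macrophages was examined with a quasi-likelihood test in edgeR with terms for polarization and irradiation across all 6 libraries, with Benjamini-Hochberg adjustment over 11574 genes. In this fit the 2 libraries of a state stand in for replicates, which assumes equal effects with and without irradiation. In all, 5 of the 10 genes fell with LPS plus IFN-γ and 0 rose, against 24.3% and 23.3% of all genes tested. Tlr13 fell by 1.60 on the log2 scale (SE 0.31, edgeR adjusted p = 0.00179), Tlr9 by 1.07 (SE 0.21, adjusted p = 0.00188) and Tlr4 by 1.17 (SE 0.27, adjusted p = 0.00534). Tlr7 fell by 0.81 (SE 0.19, adjusted p = 0.00544) and Tlr8 by 1.37 (SE 0.41, adjusted p = 0.0171). Each of these 5 genes was lower in both pairs of libraries. The assumed equal effects were not met within counting error for Tlr4 (-2.02 and -0.46), Tlr13 (-2.55 and -0.98) and Tlr7 (-1.31 and -0.35). For these genes the fitted value is an average of unlike effects, and its adjusted p does not show an equal effect in both pairs. Tlr1, Tlr2, Tlr3, Tlr6 and Cd14 did not pass, and Cd14 came nearest with 0.38 (SE 0.16, edgeR adjusted p = 0.0749). With DESeq2's Wald test 38.6% of all genes passed and 4 of the 10, a similar share, namely Tlr7, Tlr9 and Tlr13 lower and Cd14 higher, while Tlr4 (adjusted p = 0.0696) and Tlr8 (adjusted p = 0.0634) did not.

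The base composition of a transcript moved with these values. Tlr4, Tlr3, Tlr8, Tlr7 and Tlr13 have a GC content of 39.4%, 40.0%, 40.1%, 41.0% and 43.6% in the longest transcript, against 52.5% for Cd14 and 56.2% for Tlr9. In M1 against M0 the median log2 fold change was -0.19 over the 1329 tested genes under 42% GC and 0.05 over the 2988 genes of 54% or more. With the trends of each library with GC content and length removed, an alternative chosen after the data had been seen, the values in M1 against M0 were -2.39 for Tlr13, -1.80 for Tlr4, -1.26 for Tlr9, -1.12 for Tlr7 and -1.05 for Tlr8, and all 5 remained past 2-fold. In RM1 against RM0 the trend ran the other way, and Tlr13 was then called as well, at -1.09. In that fit Cd14 passed the test as higher (0.41, edgeR adjusted p = 0.0401).

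IL-4 was accompanied by a higher level of Tlr8 and by little else among the 10 genes. Tlr8, whose human counterpart senses single-stranded RNA, had 19 counts in M0 and 64 in M2, and 32 in RM0 and 119 in RM2. Both IL-4 libraries lay above all other libraries. The log2 fold change was 1.61 (0.96 to 2.54) in M2 against M0 and 1.81 (1.30 to 2.49) in RM2 against RM0. In each of these pairs Tlr8 was the 1 gene of 10 called higher and 0 were called lower, against 0.995% higher and 0.442% lower of all genes in M2 against M0 and 1.66% higher and 0.953% lower in RM2 against RM0.

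In the edgeR fit Tlr8 rose with IL-4 by a log2 fold change of 1.80 (SE 0.28, adjusted p = 0.0372), 1 of 10 genes where 0.156% of all genes tested rose and 0.0346% fell. This call did not hold with DESeq2's Wald test (1.79, adjusted p = 0.0763), with the GC and length trends removed (1.55, edgeR adjusted p = 0.142), with scaling by library totals (1.86, edgeR adjusted p = 0.102), with no term for irradiation (1.82, edgeR adjusted p = 0.665), or with a minimum of 50 counts in at least 3 libraries, which Tlr8 did not meet. Tlr7, the X-linked neighbour of Tlr8, gave 0.05 (-0.08 to 0.17) in M2 against M0 and 0.42 (0.29 to 0.54) in RM2 against RM0.

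Tlr4 followed with a log2 fold change of 0.38 (0.28 to 0.49) in M2 against M0 and 0.80 (0.70 to 0.91) in RM2 against RM0, neither of which reached 2-fold. Its shared effect was 0.57 (SE 0.26, edgeR adjusted p = 0.494). With the GC and length trends removed the 2 values became 0.25 and 0.42. Genes under 42% GC had a median of 0.38 in RM2 against RM0. Over the other 8 genes the log2 fold changes ran from -0.21 for Cd14 to 0.12 for Tlr9 in M2 against M0 and, with irradiation, from -0.17 for Cd14 and Tlr13 to 0.42 for Tlr7.

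Irradiation was compared within each state. The median log2 fold change of the receptor genes was 0.10 in RM0 against M0 and 0.80 in RM1 against M1. In RM0 against M0, 0 of the 10 genes were called in either direction, against 0.719% of all genes called higher and 0.821% lower. The furthest from 0 was Tlr8 at 0.71 (-0.09 to 1.67), followed by Tlr9 at 0.45 (0.15 to 0.76) and Cd14 at 0.21 (0.19 to 0.22). In RM2 against M2 again 0 genes were called, against 1.03% higher and 0.932% lower of all genes. All 10 values lay above 0, with a median of 0.31 where that of all genes was 0.00. With scaling by library totals Tlr2 (-0.01) and Tlr13 (-0.03) lay below 0. With the GC and length trends removed Tlr13 did so (-0.08), and genes under 42% GC had a median of 0.16 in this pair. The largest values of the main scaling were 0.90 (0.48 to 1.39) for Tlr8, 0.39 for Tlr9 and for Tlr3, 0.38 for Tlr1 and 0.37 (0.28 to 0.47) for Tlr4.

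In RM1 against M1, 2 of the 10 genes were called higher and 0 lower, against 3.08% and 2.25% of all genes. These were Tlr13, with 53 counts in M1 and 201 in RM1 and a log2 fold change of 1.72 (1.31 to 2.21), and Tlr4, with 219 and 711 counts and a log2 fold change of 1.52 (1.31 to 1.75). Of the genes that did not reach 2-fold, 5 had an interval above 0. The log2 fold changes were 0.85 (0.36 to 1.41) for Tlr9, 0.82 (0.63 to 1.02) for Tlr7, 0.81 (0.71 to 0.92) for Tlr2, 0.44 (0.19 to 0.69) for Tlr6 and 0.26 (0.25 to 0.28) for Cd14. Tlr8 gave 0.78 (-0.68 to 2.84), an interval that spans 0. Tlr1 gave 0.12 (-0.20 to 0.44) and Tlr3 -0.01 (-0.54 to 0.52). The median over all genes measured was -0.01.

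**Figure D3:**
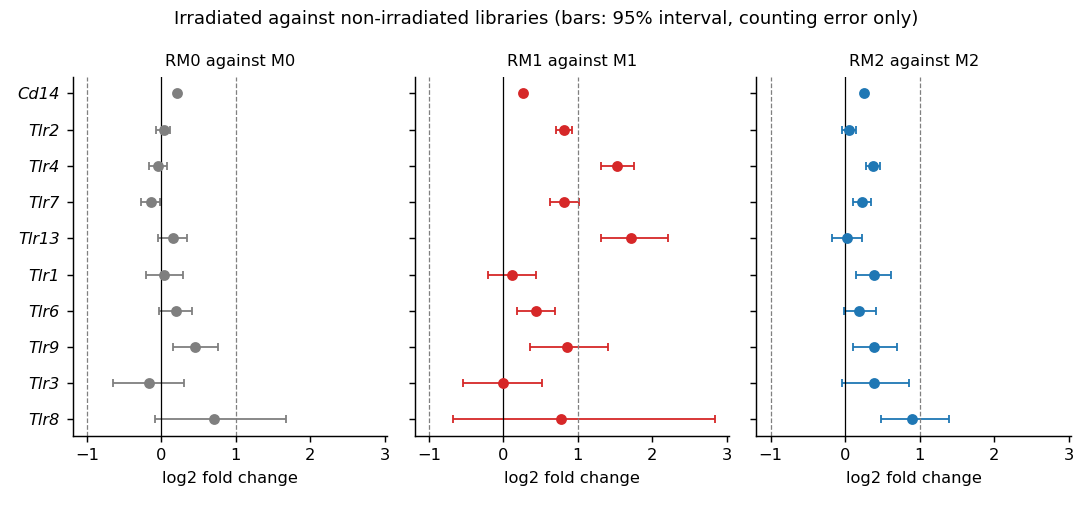
Log2 fold change of the 10 genes in irradiated against non-irradiated libraries for the M0, M1 and M2 states. Bars are exact 95% intervals for counting error and dashed lines mark 2-fold. Only Tlr4 (1.52) and Tlr13 (1.72) in RM1 against M1 pass 2-fold.

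The difference between the irradiation effects of 2 states was taken with its counting interval, since no replicate test is possible. For Tlr13 the effect in M1 exceeded that in M0 by 1.59 on the log2 scale (1.12 to 2.07) and for Tlr4 by 1.57 (1.32 to 1.82). Tlr7 gave 0.97 (0.74 to 1.20), Tlr2 0.79 (0.65 to 0.93) and Cd14 0.06 (0.03 to 0.08). The intervals of Tlr1, Tlr3, Tlr6, Tlr8 and Tlr9 included 0. The same numbers give the difference between RM1 against RM0 and M1 against M0, as both are made from the same 4 libraries. Between the M2 and M0 states the differences of Tlr4 and Tlr7 were 0.42 (0.27 to 0.57) and 0.37 (0.20 to 0.54). Those of Tlr1 and Cd14 were 0.34 (0.01 to 0.68) and 0.04 (0.02 to 0.06). With the GC and length trends removed, Tlr4 stood at 0.20 in RM2 against M2 and at 0.04 in RM0 against M0. Tlr7 then stood at 0.08 and -0.07, so both genes differed less between these states. In RM1 against M1 Tlr4 and Tlr7 then stood at 1.20 and 0.54, so their differences between the M1 and M0 states were smaller too. That of Tlr13 (1.5 and 0.20) was also smaller, while that of Tlr2 (0.83 and 0.05) hardly moved.

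Several measures moved together with the higher receptor levels in RM1. In RM1 against M1 the median was 0.27 over tested genes under 42% GC and -0.21 over genes of 54% or more, and with the trends removed Tlr13 stood at 1.5, Tlr4 at 1.20, Tlr7 at 0.54 and Tlr9 at 1.01. Tlr9 was then called too. The transcription factor genes Irf1 and Irf8, which are induced by IFN-γ, had 8628 and 6225 counts in M1 and 1710 and 2052 in RM1, and Socs1 had 205 and 63. The part of these in the result was not tested.

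In the test of an effect of irradiation shared by the 3 states 0 of the 10 genes passed in either direction, against 0.346% of all genes that rose and 0.130% that fell. Of the 10, 4 had an unadjusted p under 0.05 in edgeR, as had 14.7% of all genes, and 0 passed with DESeq2, where 0.994% of all genes did. Tlr8 had the smallest p (0.88, SE 0.26, edgeR adjusted p = 0.172), followed by Tlr9 (0.54, SE 0.16, edgeR adjusted p = 0.184), Tlr4 (0.57, SE 0.22, edgeR adjusted p = 0.277) and Tlr6 (0.27, edgeR adjusted p = 0.328). Without the M0 state Tlr4 passed as higher after irradiation (0.89, edgeR adjusted p = 0.000895), as did Tlr7 (0.50, edgeR adjusted p = 0.0297), and without the M1 state Tlr8 passed (0.88, edgeR adjusted p = 0.0165).

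Ratios within a library do not depend on scaling, but the trends with GC content and length were not removed from them. In RM2 against RM0 these trends came to 0.38 on the log2 scale at Tlr4 and -0.15 at Cd14. In RM1 against M1 they came to 0.32 and -0.18, and in M1 against M0 to -0.22 and 0.05. Per unit of length, the ratio of Cd14 to Tlr4 was 139.5 (95% interval 131.7 to 147.8) in M0 and 725.9 (635.7 to 832.7) in M1. It was 92.5 in M2, 166.2 in RM0, 302.8 (281.3 to 326.5) in RM1 and 85.0 in RM2, and was thus highest in the 2 libraries given LPS plus IFN-γ and lowest in those given IL-4. The ratio of Tlr2 to Tlr4 had the same order of states. It was 1.98 in M0, 7.26 (6.28 to 8.43) in M1 and 1.36 in M2, and after irradiation 2.08 in RM0, 4.44 (4.08 to 4.83) in RM1 and 1.08 in RM2.

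The ratio of Tlr8 to Tlr7 was 0.0206 in M0, 0.0181 in M1 and 0.0200 in RM1, and these 3 intervals overlapped. It was 0.0389 (0.0264 to 0.0553) in RM0, 0.0658 (0.0503 to 0.0847) in M2 and 0.107 (0.0879 to 0.129) in RM2. The RM0 interval overlapped those of M0 (0.0124 to 0.0324), M1 (0.00585 to 0.0428), RM1 (0.00993 to 0.0360) and M2, so RM0 was not set apart from them. Tlr13 to Tlr7 was 0.391 in M0 and 0.163 (0.119 to 0.218) in M1, so Tlr13 was lower in M1 by a larger factor than Tlr7. Tlr9 to Tlr7 was 0.167 in M0 and 0.168 in M1, a difference within the counting error. Tlr6 to Tlr1 was between 0.874 and 1.20 in 5 libraries and 1.5 (1.25 to 1.81) in RM1.

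Summed per length, the surface receptors Tlr1, Tlr2, Tlr4 and Tlr6 stood, in scaled CPM per kb, at 52.9, 37.5 and 54.7 in M0, M1 and M2 and at 53.7, 66.1 and 63.3 in RM0, RM1 and RM2. The endosomal receptors Tlr3, Tlr7, Tlr8, Tlr9 and Tlr13 summed to 22.3, 8.23 and 23.4 in M0, M1 and M2 and to 22.5, 15.4 and 27.7 in RM0, RM1 and RM2. The endosomal sum was therefore lowest in M1 and RM1, also with scaling by library totals. The surface sum was lowest in M1. It was highest in RM1, where Tlr2 made up 46.4 of it, but with library totals RM2 was highest (69.2 against 58.4 in RM1).

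**Figure D4:**
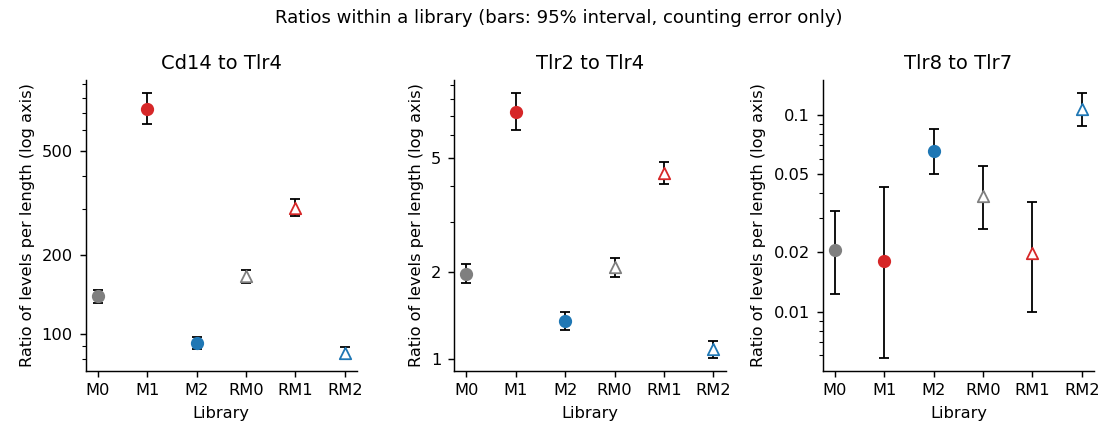
Ratios of levels per length within each library (log axes): Cd14 to Tlr4, Tlr2 to Tlr4 and Tlr8 to Tlr7. Bars are 95% intervals for counting error, with filled circles for non-irradiated and open triangles for irradiated macrophages. Cd14 to Tlr4 reaches 725.9 in M1 and 302.8 in RM1, and Tlr8 to Tlr7 is highest in RM2 at 0.107. The trends with GC content and length are not removed.

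Where the reads lie limits some of these values. In GRCm38 the tables list Tlr1 on chromosome 5 from 64924680 to 64933558 and Tlr6 beside it from 64953095 to 64960034, both on the minus strand. The longest transcripts of this pair share 259 windows of 100 bases, 8.85% of those of Tlr1 and 7.24% of those of Tlr6, in which a read cannot be assigned by its sequence, so their separate counts are uncertain. Tlr8 (chromosome X, 167242732 to 167263788) lies next to Tlr7 (167304926 to 167330571), and Tlr13 lies apart from them (106143275 to 106160493). Tlr2 is on chromosome 3 (83836272 to 83841608) and Tlr9 on chromosome 9 (106222598 to 106226876). For Tlr4 (chromosome 4, 66827811 to 66842796) the listed span covered 70.8% of the merged exons in GENCODE, and for Tlr6 69.8%. Tlr3 (chromosome 8, 45395665 to 45410539) overlaps exons of the antisense gene Gm45542 over 258 bases, and whether counting used strand is not given in the sources used here.

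The receptors were set beside genes of the same pathway, in lists named for their roles. In M1 against M0 most genes of these lists were not called, and more were called higher than lower. Of all genes measured in this pair, 9.37% were called higher and 13.3% lower. Of 12 measured genes for ligand handling and receptor trafficking, 5 were called higher and 2 lower. The 5 called higher were the cathepsin gene Ctss (log2 fold change 1.43), the scavenger receptor gene Cd36 (1.35), Lgmn (1.22), Ctsb (1.18) and Hsp90b1 (1.05). Ctss, Lgmn and Ctsb encode proteases of endolysosomes. By contrast Cd180, a receptor-like relative of TLR4, was lower (-1.20), as was Ctsk, a further cathepsin gene (-1.05). Ly96, which encodes the TLR4 partner MD-2, had 164, 137 and 208 counts in M0, M1 and M2 and 167, 214 and 233 in RM0, RM1 and RM2.

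Of 17 adaptors and kinases 1 was called higher, the kinase gene Irak2 (1.96), and 1 lower, Tab3 (-1.03), and Myd88 had between 1529 and 1780 counts in the 6 libraries. Of 10 downstream transcription factors 4 were called higher and 0 lower, Irf1 (4.78), Irf7 (3.67), Irf8 (2.48) and Nfkb2 (1.22). Of 16 negative regulators 6 were called higher, led by Socs1 (3.78), Tnfaip3 (2.80), Atf3 (1.96), Trim30a (1.68) and Dusp1 (1.62). The 1 called lower was Sigirr (-1.61), an inhibitory receptor that was named here after its value was seen.

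Of 12 outputs 7 were called higher and 0 lower. The largest were Ccl5 (4.22), Rsad2 (3.97), Cxcl10 (3.85), Il12b (3.21, 95% interval 2.19 to 7.30, from 27 counts in M1 against 2 in M0) and Il6 (2.61). Tnf had 9468 counts in M0 and 8548 in M1, which after scaling was a log2 fold change of 0.28 (0.23 to 0.32) and was not called. Of 11 other pattern recognition receptors Nod1 (3.65) and Clec4e (1.77) were called higher and Nlrp3 (-2.31) lower. The medians of these 6 lists in M1 against M0 were 0.59, -0.03, -0.03, 0.62, 1.93 and 0.66 in the order given, against -0.81 for the 10 receptor genes and -0.03 for all genes. In the edgeR fit, with Benjamini-Hochberg adjustment, the genes that rose and fell with LPS plus IFN-γ were 5 and 2 of 12 for ligand handling, 3 and 4 of 17 adaptors and kinases, 4 and 4 of 10 transcription factors, 10 and 1 of 16 negative regulators, 7 and 0 of 10 outputs and 8 and 1 of 11 other receptors. Of all genes tested 23.3% rose and 24.3% fell.

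In the lists, as among all genes, calls between irradiated and non-irradiated libraries were most frequent in the M1 state. In RM1 against M1, Ly86 (-1.07), Irf8 (-1.77), Irf1 (-2.51), Socs1 (-1.85), Cxcl10 (-2.57) and Nod1 (-1.08) were called lower, and Il1b (1.06), Cxcl2 (1.33) and Nlrp3 (1.07) higher. Of all genes 2.25% were called lower and 3.08% higher. Called lower were 1 of 12 genes for ligand handling, 0 of 17 adaptors and kinases and 2 of 10 transcription factors. So were 1 of 16 negative regulators, 1 of 11 outputs and 1 of 11 other receptors. Called higher were 2 of the 11 outputs and 1 of the 11 other receptors. Nlrp3, a cytosolic sensor, was, like Tlr4, lowest in M1 and next lowest in RM1, with 1871 counts in M0, 280 in M1, 2119 in RM0 and 663 in RM1. Elsewhere Cxcl10 was called lower in RM2 against M2 (-1.31), and Ifnb1 had 10 counts in M0 and 3 in RM0 (-1.23, 95% interval -4.22 to 0.24). Of all genes 0.932% were called lower in RM2 against M2 and 0.821% in RM0 against M0. In the edgeR fit Il1b rose with irradiation by a log2 fold change of 0.79 (adjusted p = 0.0146) and Cxcl10 fell by 1.80 (adjusted p = 0.0215), the only genes of these lists that passed. With IL-4 the genes that passed were Clec7a, the receptor for fungal β-glucan (1.34, edgeR adjusted p = 0.0208), and Nfkb1 (0.76, edgeR adjusted p = 0.0372).

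**Figure D5:**
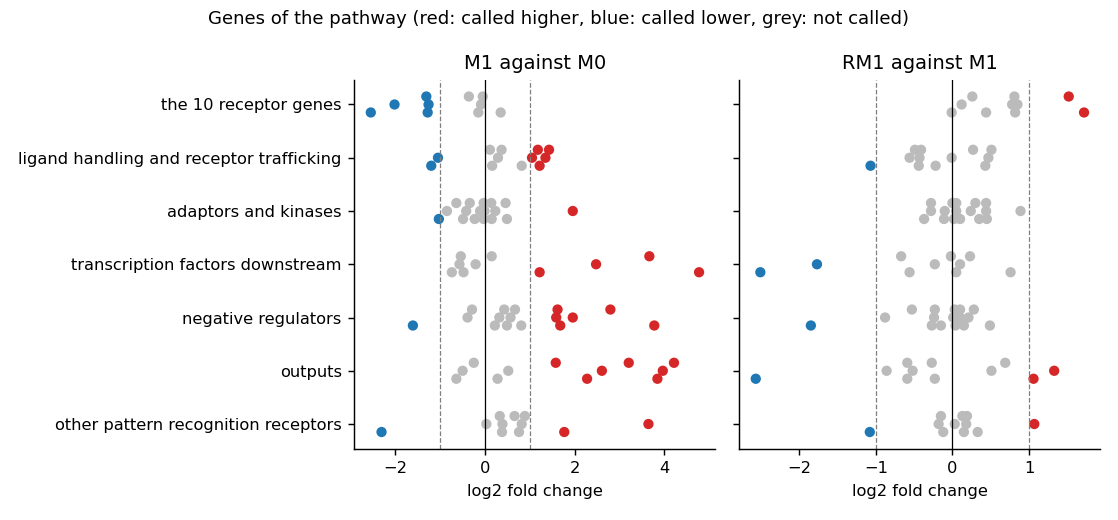
Log2 fold change of the 10 receptor genes and of 6 lists of pathway genes in M1 against M0 (left) and RM1 against M1 (right). Each point is a gene that reached 10 counts in either library, coloured by call, and dashed lines mark 2-fold. The receptor genes include 5 called lower on the left and 2 called higher on the right.

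The genes whose pattern over the 6 libraries lay nearest to each of the 5 wide-ranging receptors were found by the root mean square difference of centred log2 levels among genes averaging 50 counts or more. For Tlr4 they were Zfp953 (0.068), Fam208a (0.105) and Zfp518a (0.107), and for Tlr7 Rasa2 (0.039), N4bp1 (0.044) and Zbtb18 (0.051). For Tlr9 they were Nedd9 (0.084), Fos (0.101) and Fam120c (0.107), and for Tlr13 Fam43a (0.151), Lcmt2 (0.173) and Zfp719 (0.176). No gene lay as near to Tlr8, for which the values were 0.347 for Cst7, a cystatin, 0.386 for Clec10a, a lectin of alternatively activated macrophages, and 0.422 for Lrp4. Clec10a had 42, 7 and 101 counts in M0, M1 and M2 and 51, 10 and 128 in RM0, RM1 and RM2, the same order of states as Tlr8. These are descriptions over 6 libraries.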

How the data were processed

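RNA-seq of 6 conditions of RAW264.7 macrophages was analysed, with 1 library per condition from 5 pooled wells. The authors deposited raw counts per gene, not normalized, and the submitters' processing notes name Trimmomatic (0.36), HISAT2 (2.2.1) and HTSeq (0.11.3). Coordinates are those of GRCm38. The annotation release and the strand setting are not given in the sources used here. The tables also list functional annotations, which were not used here.

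Counts were scaled with TMM in edgeR 4.0.16 (R 4.3.3) on genes reaching 10 counts in 3 or more libraries, and a prior count of 2 was used for log2 fold changes. The 7 pairs of libraries were compared at a 2-fold threshold where either library reached 10 counts, and exact Clopper-Pearson intervals at 95% cover counting error only. The edgeR quasi-likelihood test used polarization and irradiation as additive terms (2 residual degrees of freedom, threshold 0.05). Standard errors were taken as the log2 fold change over the square root of F. Lengths and GC content came from the longest GENCODE M21 transcript, found for 95.2% of tested genes. The scripts were tested on simulated data. Alternatives were DESeq2 1.42.0 size factors and Wald test, library totals, other prior counts, filters and thresholds, models with 1 term left out, each state left out, and, added after the data were seen, removal of GC and length trends.

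The members and lists were chosen with earlier results of these data known. Named genes were the 10 members, Tlr5, Tlr11 and Tlr12, up to 5 genes per list with the largest change among those called in M1 against M0, list genes called between irradiated and non-irradiated libraries, and 3 nearest genes for each member with a log2 range of at least 1. Genes named beyond this rule, such as Ly96, Myd88, Tnf, Sigirr, Ctsk, Hsp90b1, Clec7a and Nfkb1, were chosen after their values were seen. Irg1, Emr1 and Mb21d1 in the tables were read as Acod1, Adgre1 and Cgas. Other steps used Python 3.11.15 (scipy 1.17.1, numpy 2.4.6, pandas 2.3.3) and figures matplotlib 3.10.9. A planned motif and a marker gene are not reported here.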

Additional observations from a re-analysis of the deposited data

Results flagged for a closer look

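Tlr2 and Tlr7 moved in opposite directions in 2 backgrounds, with single libraries whose counting intervals did not include 0. Tlr2 was lower in M1 than in M0 (log2 fold change -0.15) and higher in RM1 than in RM0 (0.63). Tlr7 was lower in RM0 than in M0 (-0.14) but higher in RM1 than in M1 (0.82) and in RM2 than in M2 (0.22). With the GC and length trends removed these Tlr7 values were -0.07, 0.54 and 0.08, so the contrast between the M0 and M2 states was small. With 1 library per condition these differences were not tested against replicate spread.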

How the results depend on the processing

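No paired analysis was possible because each condition had 1 library and no replicate numbers, and the edgeR fit with terms for state and irradiation already compares libraries within states. No called value changed direction. Of 547 recomputed values for single genes, 487 kept their call or moved within counting error, 45 moved further, 7 passed the threshold newly and 8 no longer did. Of the 10 genes, 5 were called in M1 against M0 and 2 at a 4-fold threshold. In RM1 against RM0, 1 was called, and 3 with library totals alone, 2 with GC and length trends removed, 4 at 1.5-fold, and 0 at 4-fold or with at least 50 counts. In the pairs M2 against M0, RM2 against RM0 and RM1 against M1 the 4-fold threshold left 0. At 1.5-fold the calls were 2 in RM2 against RM0, 1 in RM0 against M0, 6 in RM1 against M1 and 1 in RM2 against M2. The share of all genes called is given here for the 2-fold threshold only, so counts at other thresholds cannot be set against a background. Of the 5 genes past the threshold for LPS plus IFN-γ, 3 passed with no irradiation term, and Tlr4 (adjusted p = 0.0616 with edgeR) and Tlr8 (adjusted p = 0.0900 with edgeR) did not. For IL-4, 1 of the 10 genes and 22 genes in all passed. These became 0 and 3 with library totals, 0 and 14 with a minimum of 50 counts, 0 and 0 with no irradiation term, 0 and 5 with GC and length trends removed, and 0 and 41 with DESeq2, and 56 genes passed with any count. Without the M1 state they were 2 and 1406, with Tlr4 now past the threshold. For irradiation 0 of the 10 genes and 55 genes in all passed. The total became 3 with library totals, 156 with any count, 35 with at least 50 counts, 0 with no polarization term, 26 with the trends removed and 115 with DESeq2. Leaving out 1 state gave 78 to 668 genes and 0 to 2 of the 10, with 541 genes and 1 of the 10 without the M1 state. The cause was not tested. Tlr8 and Tlr3 are limited by depth, with 5 to 119 and 59 to 97 counts.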
